A study of Mus musculus with 8 samples.

Results

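The genes described here encode the non-collagen glycoproteins of the tectorial membrane and its attachments: Tectb (beta-tectorin), Tecta (alpha-tectorin), Otog (otogelin) and Otoa (otoancorin). They were taken by symbol from the annotation of the array's probe sets. All 4 of 4 were found among the 18193 genes with a probe set of their own, each with 1 probe set, and all 4 passed the filter on low values among the 13221 genes tested.

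The tectorial membrane is a gel that lies over the hair cells of the cochlea and contains no cells. It is secreted by the epithelium beneath it, mostly by supporting cells and by the interdental cells of the spiral limbus. Fibrils of collagen types II, IX and XI run through a sheet-like matrix that needs both tectorins. Otogelin is a large mucin-like component of this and other gels of the inner ear, and otoancorin anchors the membrane to the spiral limbus. Mice without Tectb lose the sheet-like matrix and hear poorly at low frequencies, which are detected at the apex of the cochlea.

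RNA came from samples labelled as organ of Corti, the strip of cochlear epithelium that holds the hair cells. The tissue was taken at postnatal day 16 and cut into an apical and a basal segment. All mice carried Atoh1-Cre, a transgene (Tg(Atoh1-cre)1Bfri) that drives recombination in hair cells, and the floxed Dicer1 allele Dicer1tm1Bdh. The conditional knockout (cKO) was Dicer1(flox/flox) and the littermate control Dicer1(flox/wt), so the controls also carried 1 floxed allele and the Cre. The 4 groups, by genotype and segment, held 2 samples apiece. A sample combined the segments from both cochleae of 1 mouse, and the apical and basal samples of a genotype with the same number were presumed to be of 1 mouse, which gives 4 presumed mice. Dicer1 cuts microRNA precursors to their mature form. In bulk samples such as these, fewer cells of a type and less RNA per cell cannot be told apart.

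Signals are linear intensities, and precision is limited by having so few arrays. The median signal of an array lay between 67.0 and 100. The control base replicates correlated less closely with each other (r = 0.9279 over log2 values across genes, which are not independent replicates) than those of the other 3 groups (0.9615 to 0.9779). Dct, a melanin enzyme of the stria vascularis beside the sensory strip, gave 15100 in the second control base replicate and 62.2 in the first. Xist, transcribed from the inactive X of females, had signals of 5970 and 5360 in the apical and basal control replicate 1 and of 77.7 to 300 in the other 6 samples. Hair cell markers were measured in both segments: the 10 of 13 with a probe set summed to 6703 to 8481 in apical and 4330 to 5483 in basal samples. The bright Myo6, at 3930 to 4830 and 3130 to 4180, dominates this sum. The mean log2 signal of the 10 was 8.03 to 8.55 in apical and 6.11 to 6.97 in basal samples. Markers of other tissue were also bright. Apical signals were 18700 to 24700 for Mbp (Schwann cells), 19600 to 28600 for Coch (fibrocytes) and 13800 to 15400 for Nefl (neurons). Basal signals were 18700 to 21100, 21700 to 29100 and 7390 to 16900 in the same order.

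The genes lie on 3 chromosomes (RefSeq, build GRCm38.p6). Tectb occupies chr19:55180726-55196313, Tecta chr9:42329622-42401690, Otog chr7:46240987-46311434 and Otoa chr7:121083424-121163093. The 120 bases before the start of transcription are shown for the pair whose signals fell from apex to base, Tectb and Otog, and for Otoa, which did not pass that test. They cover chr19:55180606-55180725, chr7:46240867-46240986 and chr7:121083304-121083423, all on the plus strand, with capitals marking a TATA box (TATAAA or TATATA on either strand).
Tectb: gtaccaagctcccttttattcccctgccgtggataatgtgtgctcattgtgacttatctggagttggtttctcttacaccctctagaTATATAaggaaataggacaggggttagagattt
Otog: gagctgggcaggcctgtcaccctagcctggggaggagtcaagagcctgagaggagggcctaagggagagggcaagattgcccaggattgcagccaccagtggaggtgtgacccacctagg
Otoa: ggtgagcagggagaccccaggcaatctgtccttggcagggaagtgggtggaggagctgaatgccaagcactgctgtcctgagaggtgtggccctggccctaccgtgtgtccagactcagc
The Tectb sequence holds TATATA, which begins 33 bases before the start site. No member other than Tectb has these letters in its window of 300 bases (250 before and 50 after the outermost start site), and 17.1% of the 32851 RefSeq windows of that length hold them. CCAAT, on either strand, occurred once in the windows of Otog and Otoa (in 37.4% of all windows). The E box CANNTG occurred in the windows of all 4 genes (in 72.3% of all windows). GGGCGG (35.7%) and AGGTCA (16.3%) occurred in none of the 4. A match describes letters and not a site in use.

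Tectb had a signal of 5870 and 11100 in the control apical samples and of 9910 and 11400 in the cKO apical samples. In the base it was 52.5 and 243 in controls and 83.3 and 418 in the cKO. Every basal sample lay far under every apical one, and on the log2 scale the replicates of a basal group differed more from each other than those of an apical group. The order of the group means on the log2 scale was cKO apex (13.38 ± 0.14, SD, n = 2), control apex (12.98 ± 0.65), cKO base (7.54 ± 1.65) and control base (6.82 ± 1.56). Only the step from apex to base exceeded the spread: the groups next to each other within a region differed by less than the larger of their SDs.

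Otog had signals of 1630 and 2960 in control apex and 3750 and 2510 in cKO apex, against 908 and 1140 in control base and 823 and 1080 in cKO base. The apical and basal samples did not overlap here either, though the gap was much narrower than for Tectb. The log2 means were 11.58 ± 0.41 (SD, n = 2) for cKO apex, 11.10 ± 0.61 for control apex, 9.99 ± 0.23 for control base and 9.88 ± 0.28 for cKO base. Neighbours in that order within a region again differed by less than the larger SD.

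Otoa signals in controls were 2060 and 2590 in the apex and 2780 and 1760 in the base. In the cKO they were 3220 and 2340 in the apex and 1640 and 2850 in the base. All 4 groups overlapped, with log2 means of 11.42 ± 0.32 (SD, n = 2) for cKO apex, 11.18 ± 0.23 for control apex, 11.11 ± 0.47 for control base and 11.08 ± 0.57 for cKO base. No neighbours in this order differed beyond their spread.

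Tecta was measured near the low end of the array. Its signal in controls was 45.9 and 108 in the apex and 29.2 and 57.5 in the base. In the cKO it was 61.3 and 67.5 in the apex and 44.5 and 32.8 in the base. The 2 lowest values, 1 in each basal group, lay under the signal used as a filter on the mean of a gene (38.706), and apical and basal samples overlapped. The log2 means were 6.14 ± 0.88 (SD, n = 2) for control apex, 6.01 ± 0.10 for cKO apex, 5.36 ± 0.69 for control base and 5.25 ± 0.31 for cKO base, with no neighbours apart beyond their spread. How well this probe set reports the transcript was not tested.

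**Figure D1:**
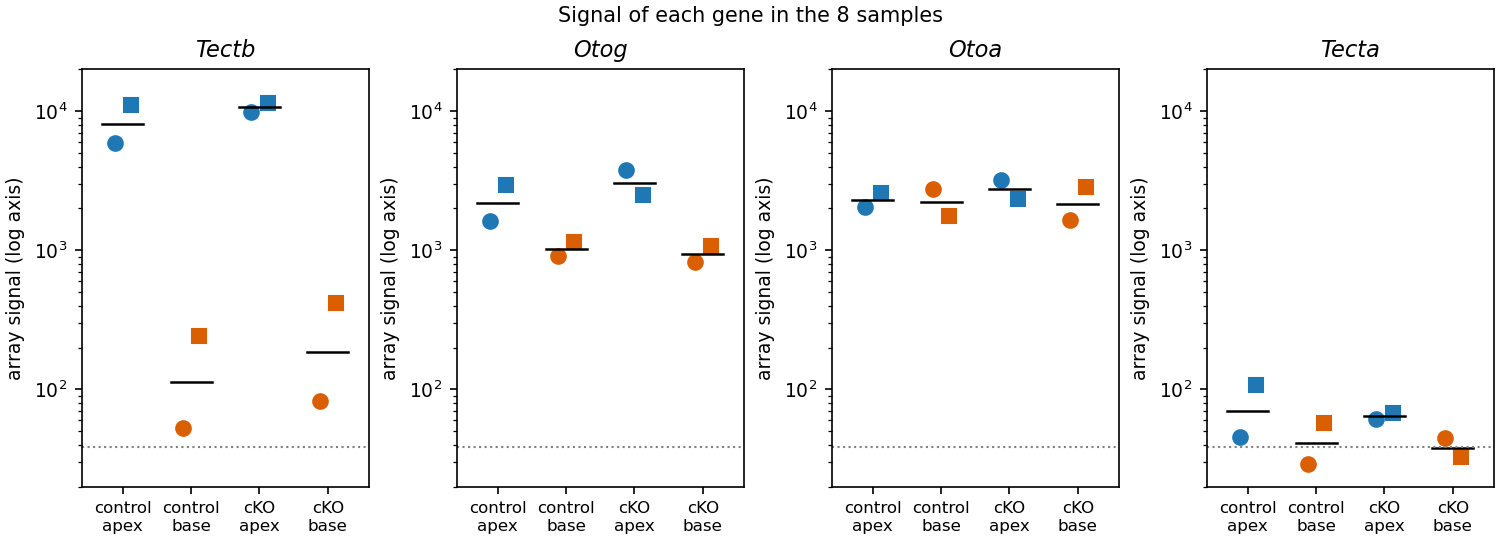
Array signal (log axis) of Tectb, Otog, Otoa and Tecta in each sample, by group. Circles are replicate 1, squares replicate 2, blue the apex and orange the base; black bars are geometric means of 2 samples, and the dotted line is the filter's signal (38.706). Tectb spans from 52.5 in control base to 11400 in cKO apex, while Otoa stays between 1640 and 3220 in all samples.

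Over both genotypes Tectb was 63.8-fold lower in the base than in the apex (-6.00 ± 0.62, log2, SE, adjusted p = 0.0164, limma, 95% interval 23.3-fold to 174-fold), and lower in 4 of 4 presumed mice, by 27.3-fold to 119-fold. Basal Tectb signals of 52.5 in control and 83.3 in cKO replicate 1 lay within or under the range of array medians (67.0 to 100). The size of the Tectb fold difference is therefore uncertain. Otog was 2.65-fold lower (-1.40 ± 0.23, adjusted p = 0.045, interval 1.81-fold to 3.86-fold), in 4 of 4 mice and by 1.79-fold to 4.55-fold. Tecta had a difference of -0.77 ± 0.38 that did not pass (adjusted p = 0.359), with the base under the apex in 4 of 4 mice. Otoa had a difference of -0.21 ± 0.23 (adjusted p = 0.689, log2 interval -0.75 to 0.34), with the base under the apex in 2 mice and above it in the other 2. The share of all tested genes with the base under the apex in 4 of 4 mice was not computed.

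Thus 2 of the 4 glycoprotein genes were called lower in the base, where 0.598% of all tested genes were called lower and 1.19% in either direction. For the same 2 all basal samples lay under all apical ones, as for 6.4% of tested genes. The median difference over all tested genes was -0.02. The Tectb call was lost without control apex replicate 1, control apex replicate 2, cKO apex replicate 1, cKO apex replicate 2 or cKO base replicate 1 (differences of -6.23, -5.77, -6.05, -5.95 and -5.41, adjusted p from 0.0523 to 0.11). The Otog call was lost without any 1 apical sample or either cKO basal sample (differences of -1.62 and -1.19 without control apex replicates 1 and 2, -1.26 and -1.55 without cKO apex replicates 1 and 2, -1.31 and -1.50 without cKO base replicates 1 and 2; adjusted p from 0.0587 to 0.202).

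Within a genotype neither gene passed the test. In controls the base minus apex difference was -6.16 ± 0.88 (log2, SE) for Tectb, a 71.4-fold difference (adjusted p = 0.226, limma), and -1.11 ± 0.33 for Otog (adjusted p = 0.575). In the cKO it was -5.83 ± 0.88 for Tectb (57.0-fold, adjusted p = 0.0921) and -1.70 ± 0.33 for Otog (3.25-fold, adjusted p = 0.126). Tecta gave -0.78 ± 0.54 in controls and -0.75 ± 0.54 in the cKO, and Otoa -0.06 ± 0.33 and -0.35 ± 0.33. Limma called 0 of the 13221 genes (0%) in controls, with 994 at an unadjusted p under 0.05, and 11 (0.0832%) in the cKO, with 1490. Both numbers called were higher without control base replicate 1, so the 0 does not show that controls lack differences between segments. Tectb in the cKO passed with the presumed mouse as a random block (adjusted p = 0.0343) and did not with it as a fixed block (adjusted p = 0.055). It also passed without control base replicate 1 or 2 (adjusted p = 0.00797 and 0.00818), as did Otog in the cKO (0.0352 and 0.036), and without control base replicate 1 Tectb passed in controls (-5.05, adjusted p = 0.0239).

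Among 9 lists of cell type markers, those of supporting cells and hair cells held the 5 markers called between base and apex. Of the 11 supporting cell markers tested, 2 were called lower in the base: Sox2, a factor of the sensory lineage (-1.37 ± 0.16, log2, SE, adjusted p = 0.0197, limma; signals of 628 to 1000 in the base and 1800 to 2030 in the apex), and the Notch ligand Jag1 (-1.19 ± 0.13, adjusted p = 0.0173). The median of the 11 was -0.65, and the mean log2 signal of all 12 markers with a probe set did not overlap, at 10.47 to 10.68 in apical and 9.91 to 10.19 in basal samples. Their summed signal, which the bright Gjb2, Gjb6 and S100a1 dominate, did overlap, at 54180 to 63120 in the apex and 52800 to 61530 in the base. The rest of the tested markers, none called, included Prox1 (-1.12), Fgfr3 (-1.05), Lfng (-0.73), Fabp7 (-0.65) and Cdkn1b (-0.15). S100a1 gave -0.04, Slc1a3 0.04, Gjb6 0.24 and Gjb2 0.29, so not every marker of the list was lower in the base. The Otog difference was close in size to that of Sox2, and the Tectb difference far larger than either. Of the 9 hair cell markers tested, 3 were called lower in the base (Gfi1, Calb1 and Chrna9), at a median of -1.10. The part of these markers in the results on Tectb and Otog was not tested.

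Stria vascularis markers (12 of 12 with a probe set, 10 tested) had a median difference of 2.14 and none was called. Their summed signal was 22280 to 23310 in cKO apex, 51520 to 56920 in cKO base, 23060 to 27970 in control apex and 21080 to 57280 in control base. Dct was higher in the base in 3 of the 4 presumed mice and lower there in control mouse 1 (3750 in the apex and 62.2 in the base), and Tectb was lower in the base in all 4, by 112-fold in control mouse 1. The part of strial tissue in these results was not tested. Oc90, an otoconial protein made in the vestibular part of the ear, was the 1 of 2 otoconial markers with a probe set. It ran from 616 to 3880 in the apex and from 468 to 1160 in the base (-1.27 ± 0.68, adjusted p = 0.393). In 4 of 4 groups the replicate with more Oc90, replicate 2 each time, also had more Tectb, and in 3 of 4 more Otog. Within a genotype, samples of the same number were presumed to share a mouse, so the groups are not independent. The share of all tested genes with the same order was not computed. The part of Oc90-expressing tissue in these results was not tested.

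Other structural genes of the tectorial membrane were read from a list of partners. Of the 9 on the list, Ceacam16 and Otogl were not analysed here for want of a probe set of their own in the annotation used, and all 7 others were tested over both genotypes. Strc, whose product stereocilin attaches the membrane to outer hair cell bundles, fell from apex to base, and 2 collagen chains rose, Col9a2 of type IX and Col11a2 of type XI. The other 4, which did not pass, also had positive differences. All 6 collagen genes were higher in the base in 4 of 4 presumed mice, while Tectb, Otog, Tecta and Strc were lower in 4 of 4. Otoa was split, and the share of all tested genes that went 1 way in 4 of 4 was not computed. Some markers of neighbouring tissue were also higher in the base, with none called. Bone markers (6 of 7 with a probe set, all 6 tested) had a median difference of 0.73, with Ibsp at 0.84 ± 0.21 and Ctsk at 0.87 ± 0.27, and summed signals of 6191 to 12700 in the apex and 11740 to 22460 in the base. Fibrocyte markers (6 of 6) had a median of 0.31, from -0.04 ± 0.11 for Coch to 0.88 ± 0.17 for Pou3f4. Otor gave 0.13, Otos 0.16, Car3 0.46 and Tbx18 0.48. Their summed signals overlapped, at 70020 to 96620 in the apex and 84780 to 114200 in the base. The part of these tissues in the collagen differences was not tested. The median over the 7 partner genes was 0.79, and 0.59% of all tested genes were called higher in the base.

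Col11a2 signals in controls were 1510 and 2120 in the apex and 3590 and 4190 in the base. In the cKO they were 1530 and 1840 in the apex and 4800 and 5630 in the base. All basal samples stood above all apical ones, and the gene was 2.59-fold higher in the base (1.38 ± 0.15, log2, SE, adjusted p = 0.0164, limma). Col9a2 ran from 1450 to 2880 in the apex and from 5190 to 7950 in the base (1.60 ± 0.21, adjusted p = 0.0288). Col2a1, the type II fibril chain, ran from 6670 to 11500 and from 14200 to 18800 and missed the threshold narrowly (0.79 ± 0.14, adjusted p = 0.0522). Col9a3 gave 0.87 ± 0.18 (adjusted p = 0.0651), Col11a1 0.73 ± 0.15 (adjusted p = 0.0651) and Col9a1 0.39 ± 0.10 (adjusted p = 0.0996). All but Col9a1 had basal samples wholly above apical ones, as did 5.96% of tested genes. A second probe set gave a larger difference for Col9a1 (1.52 ± 0.33) and smaller ones for Col11a1 (0.56 ± 0.16) and Col9a3 (0.50 ± 0.26). Col2a1 and Col9a3 passed with the presumed mouse as a fixed block (adjusted p = 0.0229 and 0.034) or a random block (0.0191 and 0.0268), and Col11a1 with a random block (0.03) but not a fixed one (0.0535). Col2a1 also passed with the filter at the 60th percentile (adjusted p = 0.0469) and after centring on the 75th (0.0494). Col9a2 was not called with no intensity trend (1.60, adjusted p = 0.0531).

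Strc signals in controls were 371 and 436 in the apex and 84.1 and 148 in the base. In the cKO they were 643 and 436 in the apex and 18.6 and 53.8 in the base. The cKO basal samples were the lowest, 1 of them under the filter's signal, and the segments did not overlap. The base was 7.76-fold under the apex (-2.96 ± 0.37, adjusted p = 0.023, limma). By mean log2 signal the hair cell markers were also lowest in cKO base, at 6.11 to 6.47, with control base at 6.92 to 6.97. Their summed signals overlapped between these groups, at 4330 to 4878 in cKO base and 4604 to 5483 in control base. In apical samples their mean log2 signal was 8.03 to 8.55, with the cKO (8.27 to 8.48) inside the control range. The part of hair cell content in the Strc difference was not tested. The calls of Col9a2 and Col11a2 were lost without any 1 of the 4 cKO samples (1.55 to 1.65 for Col9a2, adjusted p from 0.109 to 0.127, and 1.31 to 1.44 for Col11a2, 0.0794 to 0.11). That of Strc was lost without any 1 apical sample or cKO base replicate 1 (-2.57 to -3.10, adjusted p from 0.0818 to 0.128).

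**Figure D2:**
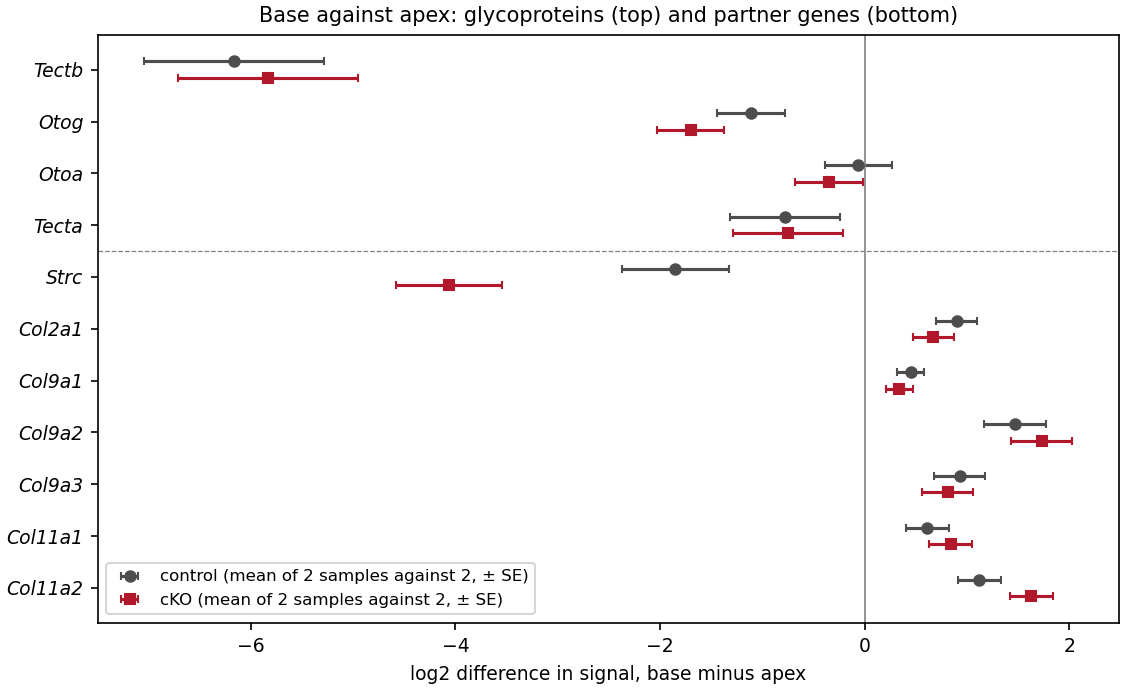
Base minus apex difference in log2 signal for the 4 glycoprotein genes (above the dashed line) and 7 partner genes (below it), in control (grey circles) and cKO (red squares), each from 2 samples against 2; bars are SEs of the moderated fit. Tectb sits near -6 in both genotypes, Otoa near 0, Strc below 0, and the 6 collagen genes between 0.34 and 1.73.

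The study's main question was what loss of Dicer1 from hair cells does to gene expression in each segment. None of the 4 glycoprotein genes passed this comparison in either segment. In the apex, cKO minus control was 0.40 ± 0.88 (log2, SE, 95% interval -1.65 to 2.45) for Tectb, 0.48 ± 0.33 (-0.29 to 1.25) for Otog, 0.25 ± 0.33 (-0.53 to 1.02) for Otoa and -0.13 ± 0.54 (-1.39 to 1.13) for Tecta. In the base it was 0.72 ± 0.88 (-1.33 to 2.78) for Tectb, -0.11 ± 0.33 (-0.88 to 0.66) for Otog, -0.03 ± 0.33 (-0.81 to 0.74) for Otoa and -0.10 ± 0.54 (-1.36 to 1.16) for Tecta. These intervals do not show that the genotypes are alike: they allow 2-fold differences either way for Tectb and Tecta in each segment. They also allow a 2-fold higher Otog or Otoa in the cKO apex.

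Limma called 0 of 13221 genes in the apex (0%, with 290 at an unadjusted p under 0.05) and 0 in the base (0%, with 413). Among the partner genes the smallest p in the base belonged to Strc, at -1.82 ± 0.52 (adjusted p = 1), with Col9a1 at 0.28 ± 0.13 and Col11a2 at 0.42 ± 0.21. In the apex Col9a1 gave 0.39 ± 0.13, Col2a1 0.47 ± 0.20 and Col9a3 0.31 ± 0.25. None of the 7 passed in either segment, with medians of 0.31 in the apex and 0.28 in the base, against 0.00 over all tested genes in both.

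**Figure D3:**
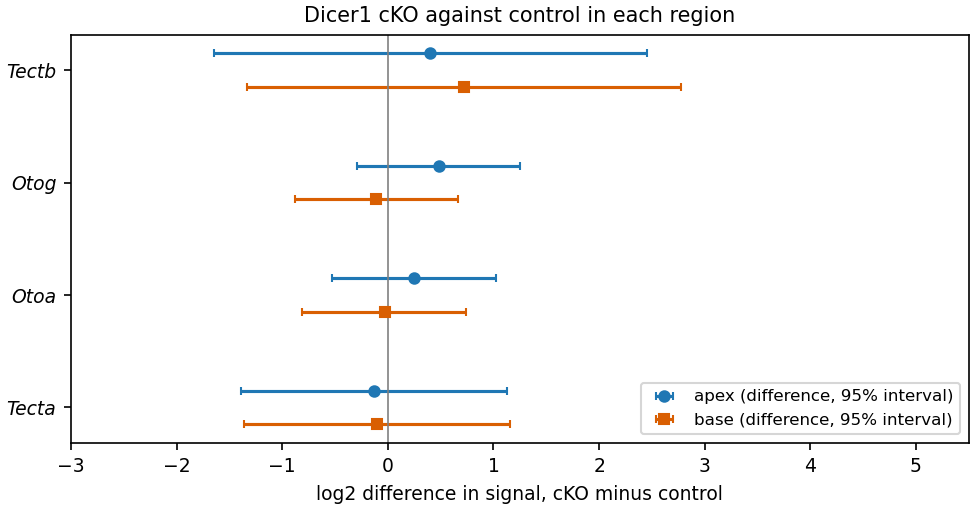
cKO minus control difference in log2 signal for Tectb, Otog, Otoa and Tecta in the apex (blue circles) and base (orange squares), each from 2 samples against 2; bars are 95% intervals of the moderated fit. Every interval includes 0, and those of Tectb are the widest, from -1.65 to 2.45 in the apex and from -1.33 to 2.78 in the base.

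Whether the step from apex to base differed between genotypes was tested directly, as the cKO effect in the base minus that in the apex. The difference was 0.33 ± 1.24 (log2, SE, 95% interval -2.57 to 3.23) for Tectb, -0.59 ± 0.47 (-1.68 to 0.50) for Otog, -0.28 ± 0.47 (-1.38 to 0.82) for Otoa and 0.03 ± 0.76 (-1.75 to 1.81) for Tecta. None passed (adjusted p = 1 for each, limma), nor did any of the 7 partner genes, of which the 3 of smallest p were Strc (-2.22 ± 0.74), Col11a2 (0.51 ± 0.29) and Col2a1 (-0.23 ± 0.28). Limma called 0 of 13221 genes (0%), with 149 at an unadjusted p under 0.05. So the larger Otog step in cKO mouse 1 (from 3750 to 823) is not shown to be an effect of genotype.

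The genes whose pattern over the 8 samples was most like that of each glycoprotein gene were found by Pearson's r of log2 signals, among 2376 tested genes with an SD of at least 0.5. The samples share presumed mice, so r is a description only. For genes with a step from apex to base, such as Tectb and Otog, r partly reflects that step. Otoa showed no clear step. The genes most like Tectb were Mycn, a growth-promoting transcription factor (r = 0.985), Gipc2, a PDZ-domain protein (0.980), and Hs6st2, a heparan sulfate sulfotransferase (0.980). Their steps were much smaller than that of Tectb: Hs6st2 ran from 778 to 1130 in the apex and from 162 to 299 in the base, Gipc2 from 309 to 513 and from 101 to 161, and Mycn from 592 to 698 and from 301 to 364.

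For Otog the most similar were the transcripts A930033H14Rik (r = 0.982) and B930095G15Rik (0.979), and Krt19, an epithelial keratin (0.976) that ran from 517 to 1010 in the apex and from 263 to 449 in the base. For Tecta they were Ptpro, a receptor phosphatase (0.975), the aggrecan-cleaving protease Adamts4 (0.950) and the reductase Ptgr1 (0.936). Tecta and Ptpro were highest in control apex replicate 2, at 108 and 256. For Otoa no gene came as close: Nudt17 had 0.868, Lin9 0.853 and Gfra2, a receptor for neurturin, 0.823.

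**Figure D4:**
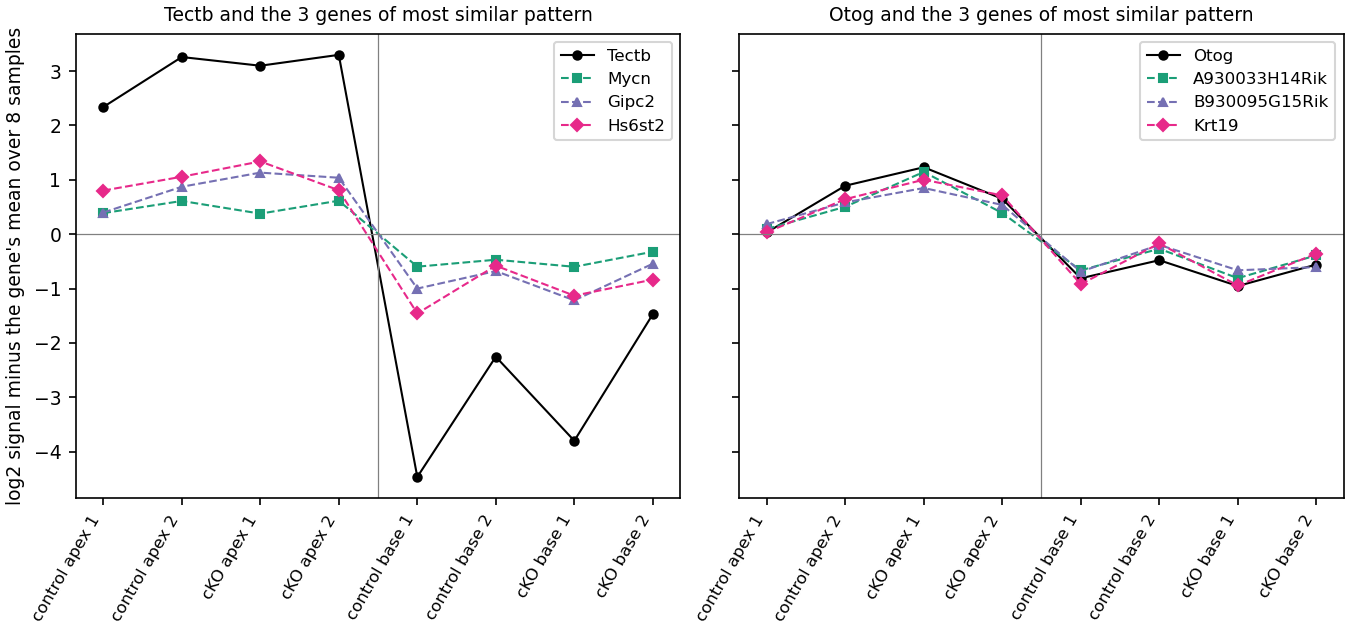
Log2 signal minus the gene's own mean over the 8 samples, for Tectb (left) and Otog (right, both in black) and the 3 genes of most similar pattern to each (dashed); lines join samples only to guide the eye, and the grey vertical line divides apex from base. All 8 genes are higher in the apex, and Tectb moves further than Mycn, Gipc2 and Hs6st2.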

How the data were processed

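RNA of 8 samples was measured on 1 Affymetrix array each; per the labels' protocols, a 2-cycle kit amplified 75 to 125 ng of RNA. The authors deposited a linear intensity for each probe set; its mean is 500 on every array once 2% is trimmed off each end, as computed from the values. The submitters' processing notes name MAS5 and affy 1.26 without their roles. Groups came from the sample titles.

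Of 45101 probe sets, 64 array controls were left out; 34945 had 1 gene in the supplied annotation, 932 several and 9160 none listed. A gene was read from its probe set of highest mean log2 value, with no pseudocount. Genes under the 40th percentile of probe sets (a signal of 38.706) were not tested. limma 3.58.1 on R 4.3.3 (eBayes with intensity trend, 4 residual and 3.46 prior degrees of freedom) fitted the 4 group means. Tests were two-sided and Benjamini-Hochberg adjusted over 13221 genes at 0.05. They were also run on simulated data with independent samples, a check that does not cover shared mice or an outlying array. Nothing says that replicates were processed apart, so p-values measure the spread between these samples. Deviations from group means of apex and base with the same number correlated at 0.339 in controls and 0.0683 in cKO. Named were the members, called or lowest-p partner genes, and the 3 genes most like each member. Alternatives were other filters, normalizations, probe set rules, fits and blocks and leaving out samples; leaving out both samples of a presumed mouse, and all alternatives for the partner genes, were added after seeing the data. The members and lists were chosen with earlier results of these data known.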

Additional observations from a re-analysis of the deposited data

How the results depend on the processing

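Over both genotypes Tectb kept its direction and its call under all 10 alternatives that left out no sample. Otog kept its direction but not its call with every probe set tested (-1.40, adjusted p = 0.051, limma) and with no intensity trend (-1.40, adjusted p = 0.0695). Within the cKO, Tectb (-5.83) passed with the presumed mouse as a random block and when only the groups compared were fitted, as did Otog (-1.70) in the latter. Tecta's interaction turned to -0.05 after quantile normalization and Otoa's cKO minus control in the base to 0.01 after centring on the 75th percentile. Tecta was not tested with the filter at the 60th percentile.

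The numbers of genes called moved more. For base minus apex in the cKO they were 0 with no filter, quantile normalization, centring, every probe set or no trend, 6 with probe sets of a gene averaged, and 449 with only the groups compared. Over both genotypes they were 98 with probe sets averaged and 70 with no trend, which also gave 1 for cKO minus control in the apex and 1 in the base. The presumed mouse as a fixed replicate block gave 0 in the cKO and 255 over both genotypes, and as a random block 81 and 527. The cause was not tested.

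Leaving out 1 sample, or both samples of a presumed mouse, gave ranges in log2 units. Base minus apex over both genotypes ran from -6.58 to -5.41 for Tectb, -1.65 to -1.16 for Otog, -0.52 to 0.11 for Otoa and -1.08 to -0.46 for Tecta, with 0 to 1518 genes called. In controls it ran from -7.26 to -5.05 for Tectb, -1.54 to -0.68 for Otog, -0.56 to 0.43 for Otoa and -1.40 to -0.16 for Tecta (0 to 551 genes), and in the cKO from -7.00 to -4.67 for Tectb, -2.19 to -1.21 for Otog, -0.98 to 0.28 for Otoa and -1.04 to -0.46 for Tecta (0 to 449 genes). The cKO minus control difference in the apex ran from -0.06 to 0.86 for Tectb, 0.05 to 0.91 for Otog, 0.02 to 0.48 for Otoa and -0.75 to 0.49 for Tecta (0 to 3 genes). In the base it ran from -0.44 to 1.89 for Tectb, -0.31 to 0.09 for Otog, -0.43 to 0.37 for Otoa and -0.59 to 0.39 for Tecta (0 to 103 genes). The interaction ran from -0.84 to 1.49 for Tectb, -1.08 to -0.11 for Otog, -0.91 to 0.35 for Otoa and -0.59 to 0.65 for Tecta (0 to 13 genes). Without either cKO mouse, Tectb, Otog, Strc, Col9a2 and Col11a2 were not called. Signals near the filter limit what can be said of Tecta.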
